A study of Mus musculus with 30 samples.

Results

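The 32 genes described here carry glucose into the cell, run glycolysis, handle lactate and pyruvate, and run the pentose phosphate pathway. They were chosen by name for those roles out of 23420 gene symbols in the deposited tables, and all 32 were present. Tests covered 31 of them. Rpia, which encodes ribose 5-phosphate isomerase, had at most 1.39 TPM in any library and fell below the count minimum. TPM, a share of all transcripts, is a level scaled for sequencing depth and gene length.

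The libraries came from CD4 T cells of C57BL/6 mice that carry a Foxp3-GFP reporter and an IL-10 Thy1.1 reporter. Naive cells, sorted as CD44-, CD62L+ and GFP-, were cultured with 2.5 ug/ml anti-CD3 and irradiated feeder splenocytes without CD4 T cells, 6 feeders to 1 T cell. The 5 cultures differed in cytokine. Tr1 cultures, regulatory cells of type 1, received 25 ng/ml IL-27. pTh17 cultures, called pathogenic, received 20 ng/ml IL-1b, 25 ng/ml IL-6 and 20 ng/ml IL-23. Th17 cultures, called non-pathogenic, received 2 ng/ml TGFb1 and 25 ng/ml IL-6. Th1 cultures received 20 ng/ml IL-12, and Th2 cultures 20 ng/ml IL-4. At 72 h live TCRb+ CD4+ GFP- cells were sorted by the IL-10 reporter into a positive and a negative compartment, and each library was made from a lysate of 2000 cells, giving 3 libraries a group in 10 groups. All groups are thus reporter cells stimulated in vitro beside feeders, and the sort removed Foxp3-GFP cells. Each title number is shared by an IL-10 positive and an IL-10 negative library of the same culture type. The tests below did not pair these libraries. Nothing in the labels tells whether replicates are separate mice or cultures. The p-values therefore reflect only how libraries of a group vary, which may be technical.

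Glycolysis converts glucose to pyruvate, which is either reduced to lactate and exported or passed to the mitochondrion. The pentose phosphate pathway branches off at glucose 6-phosphate and yields NADPH in its oxidative arm and ribose phosphate in its non-oxidative arm. Activated effector T cells are known for strong aerobic glycolysis, and HIF-1, Myc and mTOR signalling are known to raise transcription of these genes.

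Total expected counts ranged from 4394704 to 11850597 per library, and the 32 genes took 0.66% to 3.73% of them. Il10 was higher in IL-10 positive cells of each culture, and its log2 fold change was 6.47 in Tr1, 6.03 in pTh17, 3.801 in Th17, 6.06 in Th1 and 3.62 in Th2. Thy1, whose reporter allele marks IL-10 production and whose own allele is also expressed by T cells, was higher in all 5, at 1.39, 0.75, 1.19, 2.86 and 1.84 in the same order. Libraries are named below by compartment and the replicate number in their titles. The protocol describes both compartments as Thy1.1+, and the titles were followed. All 6 CD4 T cell markers were detected in every group. The spread of the 32 genes within a group was small, with a median coefficient of variation of 4.79% over 279 gene and group values of at least 10 TPM.

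Summed over the 32 genes, TPM was lowest in Tr1 cells, and the sum was higher in IL-10 positive than in IL-10 negative libraries of each culture. Their summed level was 10169.9 ± 284 TPM in IL-10 positive and 7721 ± 144 TPM in IL-10 negative Tr1 libraries (SD, n = 3 each, as in the sums that follow). It was 35405 ± 421 TPM in IL-10 positive and 32799 ± 793 TPM in IL-10 negative pTh17 libraries, and 27905 ± 825 TPM in IL-10 positive and 11500.3 ± 396 TPM in IL-10 negative Th17 libraries. In Th1 the 2 sums were 30271 ± 485 TPM in IL-10 positive and 19655 ± 353 TPM in IL-10 negative libraries, and in Th2 36444 ± 1266 TPM in IL-10 positive and 30393 ± 732 TPM in IL-10 negative libraries. The ratio of IL-10 positive to IL-10 negative mean sums was thus widest in Th17, at 2.43, and narrowest in pTh17, at 1.08, with 1.54 in Th1, 1.32 in Tr1 and 1.20 in Th2. Libraries of the 2 compartments did not overlap in any culture. From high to low, the order was IL-10 positive Th2 and pTh17, whose libraries overlapped, IL-10 negative pTh17, then IL-10 negative Th2 and IL-10 positive Th1, which overlapped too. Below them came IL-10 positive Th17, IL-10 negative Th1, IL-10 negative Th17 and both Tr1 groups, with no overlap between neighbours. Gapdh alone made up 26.3% to 33.5% of the sum, and the 5 most abundant genes of each group, always Gapdh, Ldha, Pkm and Aldoa with Pgk1 or Eno1, 73.7% to 78.1%. In pTh17, where the ratio was 1.08, edgeR called 1 of the 31 genes higher and 5 lower in IL-10 positive cells, and the median log2 difference of all genes on the TPM scale was 0.05. The libraries are bulk samples, so fewer cells of a type and less RNA per cell cannot be told apart.

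**Figure D1:**
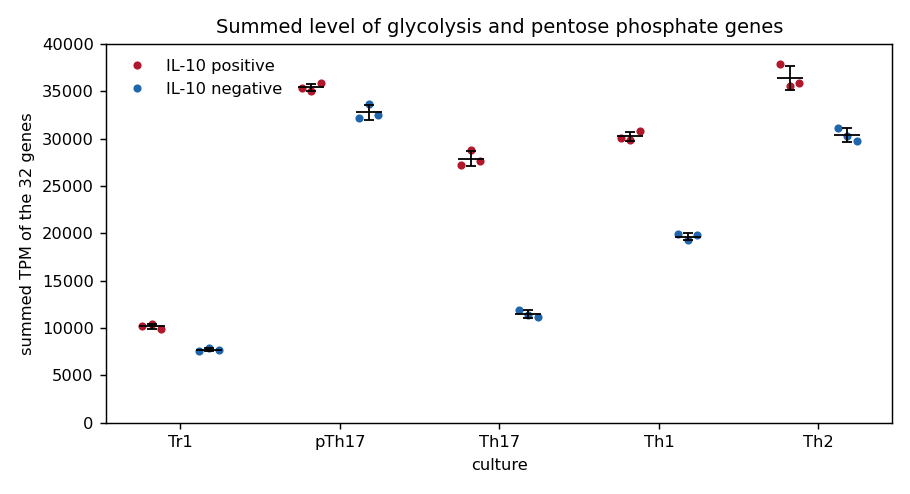
Summed TPM of the 32 genes (vertical axis, from 0) in each library, as points, by culture (horizontal axis) and IL-10 compartment, with the mean and SD of 3 libraries in black. The Th17 groups lie furthest apart (ratio 2.43), the pTh17 groups closest (1.08), and both Tr1 groups lie lowest.

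Tr1 stood apart in both compartments. Tests were edgeR's quasi-likelihood test, with p adjusted by Benjamini and Hochberg over 12611 genes and calls made at an adjusted p below 0.05. A comparison added after values were seen set Tr1 against the mean of the other 4 cultures. Among IL-10 positive libraries, 23 of 31 genes were lower and 2 higher in Tr1, where 32.3% of all genes tested were lower and 33.3% higher. Among IL-10 negative libraries 26 were lower and 3 higher, against 30.2% and 27.4% of all genes. The median log2 difference of the 31 genes was -0.87 and -1.14 in these comparisons, and that of all genes 0.01 and -0.01. The genes higher in Tr1 were G6pdx (0.47) and Pdk2 (0.81) among IL-10 positive libraries, and Pdk2 (0.96), Pdk1 (0.81) and Ldhb (0.71) among IL-10 negative ones. Across the 5 cultures, 30 of the 31 genes differed somewhere among the IL-10 positive groups, the exception being Rpe, and all 31 among the IL-10 negative groups. The shares of all genes that did so were 92.2% and 88.2%, so these counts say little about the 31 genes.

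The IL-10 difference of the set was largest in Th17 and small and mixed in pTh17. In Th17, 24 of 31 genes were higher and 2 lower in IL-10 positive cells, beside 29.2% and 28.9% of all genes tested, with a median log2 fold change of 0.99 (all genes -0.04). In pTh17, 1 gene was higher and 5 were lower, beside 10.1% and 8.33%, with a median of -0.05 (all genes close to 0). Th1 had 18 higher and 2 lower, beside 23.5% and 20.4%, with a median of 0.32 (all genes -0.02). Th2 had 14 higher and 3 lower, beside 12.3% and 9.49%, with a median of 0.17 (all genes 0.01), and Tr1 had 13 higher and 3 lower, beside 20.5% and 14.2%, with a median of 0.21 (all genes 0.05). On the mean over 5 cultures 22 genes were higher and 5 lower, beside 29.6% and 28.2% of all genes. The pTh17 counts are the least stable of these, and depend on single libraries: without IL-10 negative pTh17 library 14 no gene was higher, and without IL-10 positive library 14 or IL-10 negative library 15 only 2 were lower, and 3 without IL-10 positive library 13. In limma on log2 TPM 6 were higher and 2 lower. In Th1 the lower count was 4 without IL-10 negative library 5.

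By edgeR no gene was higher in IL-10 positive cells of all 5 cultures. Slc2a1, Aldoa, Tpi1, Gapdh, Pgk1, Eno1, Pkm, Ldha and Slc16a3, 9 genes, were higher in 4, and 7 more in 3. The share of all genes tested that was higher in as many cultures was not counted, so these counts lack a background. Eno2, Rpe and Rpia, the last of them untested, were called in no culture in the fit of all libraries. The IL-10 difference was unequal over the 5 cultures for 30 of the 31 genes, all but Rpe, beside 60.7% of all genes. Set directly against pTh17, the Th17 difference was larger for 26 genes and smaller for 2, beside 23.3% and 19.9% of all genes, with a median log2 difference of 1.01 (all genes -0.02). Set against the mean of the other 4 cultures, a comparison added after values were seen, it was larger for 25 and smaller for 2, beside 23.9% and 22.6% of all genes. The genes with a smaller difference in Th17 were Pfkfb4 in both comparisons, Pdk2 against pTh17 alone and Slc2a3 against the mean of the others. Pfkfb4 differed by -1.01 against pTh17 (edgeR adjusted p = 5.36e-04), and Slc2a3 by -0.60 against the mean (edgeR adjusted p = 2.60e-04). The Pdk2 call ended without IL-10 negative Th17 library 12, IL-10 positive pTh17 library 14 or IL-10 negative pTh17 library 15, where its log2 value was -0.59 to -0.52.

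**Figure D2:**
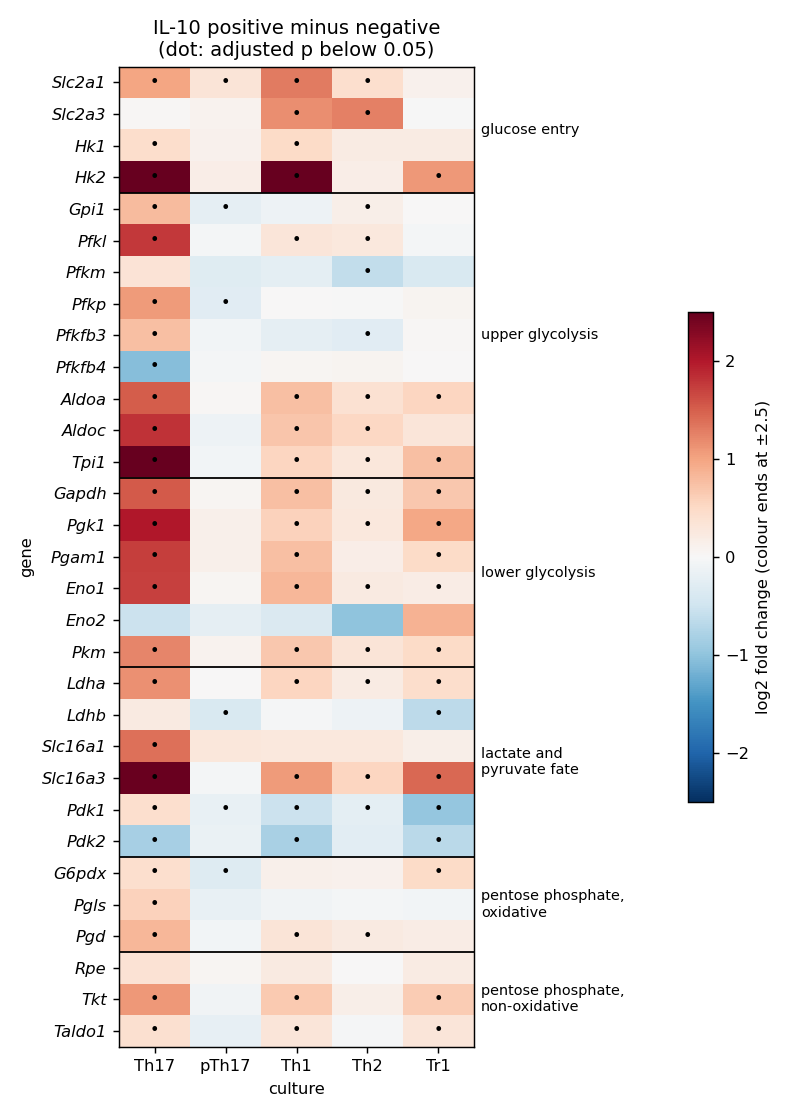
log2 fold change, IL-10 positive minus IL-10 negative, of the 31 tested genes (rows, grouped by role) in 5 cultures (columns), with a dot where edgeR's adjusted p was below 0.05. The Th17 column is red for nearly all genes (24 higher, 2 lower), the pTh17 column pale (1 higher, 5 lower), and Pdk1 and Pdk2 are blue in most columns.

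The 6 genes with the smallest p in edgeR's test for unequal IL-10 differences were Slc16a3, Tpi1, Gapdh, Hk2, Pgk1 and Eno1, in that order. Upstream sequence of the 5 of them that have a single listed start is shown to let a reader see where the short cores bound by HIF-1 fall. Each run gives 250 bases 5' to 3' ending at the base before that listed start in GRCm38.p6. ACGTG and GCGTG, and their reverse complements CACGT and CACGC, are in capitals. In RefSeq the Slc16a3 gene begins further upstream, at chr11:120948484, and so does the Gapdh gene, at chr6:125166467. Their windows thus lie inside the annotated genes. Slc16a3 lies at chr11:120948817-120949066, plus strand, Tpi1 at chr6:124814159-124814408, minus strand, Gapdh at chr6:125165774-125166023, minus strand, Hk2 at chr6:82774455-82774704, minus strand and Pgk1 at chrX:106186850-106187099, plus strand.
Slc16a3: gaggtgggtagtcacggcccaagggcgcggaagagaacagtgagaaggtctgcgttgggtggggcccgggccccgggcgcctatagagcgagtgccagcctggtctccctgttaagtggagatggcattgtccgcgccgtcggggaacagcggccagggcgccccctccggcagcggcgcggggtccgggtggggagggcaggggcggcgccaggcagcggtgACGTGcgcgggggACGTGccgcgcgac
Tpi1: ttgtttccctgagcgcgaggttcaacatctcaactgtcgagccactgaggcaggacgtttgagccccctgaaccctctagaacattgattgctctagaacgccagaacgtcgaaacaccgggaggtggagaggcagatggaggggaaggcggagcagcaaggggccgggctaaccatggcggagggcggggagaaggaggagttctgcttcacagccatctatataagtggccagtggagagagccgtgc
Gapdh: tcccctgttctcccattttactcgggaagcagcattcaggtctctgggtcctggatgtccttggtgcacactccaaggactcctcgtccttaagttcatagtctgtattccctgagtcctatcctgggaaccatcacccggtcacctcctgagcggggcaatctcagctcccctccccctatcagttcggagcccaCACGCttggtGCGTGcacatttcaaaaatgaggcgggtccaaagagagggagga
Hk2: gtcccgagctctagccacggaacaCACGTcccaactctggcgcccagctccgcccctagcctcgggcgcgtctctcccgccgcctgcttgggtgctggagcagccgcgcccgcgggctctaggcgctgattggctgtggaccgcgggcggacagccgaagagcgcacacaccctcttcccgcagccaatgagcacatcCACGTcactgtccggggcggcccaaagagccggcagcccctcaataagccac
Pgk1: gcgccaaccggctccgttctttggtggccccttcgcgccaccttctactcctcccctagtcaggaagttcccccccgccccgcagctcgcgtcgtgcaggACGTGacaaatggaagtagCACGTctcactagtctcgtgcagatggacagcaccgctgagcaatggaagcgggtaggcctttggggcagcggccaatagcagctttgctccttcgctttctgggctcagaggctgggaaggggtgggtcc
Slc16a3, Hk2 and Pgk1 each hold 2 ACGTG cores, Gapdh holds 2 GCGTG cores, and Tpi1 holds neither in this window. Of the 32 genes, 31 had a listed promoter, Slc2a3 being the other. ACGTG occurred upstream of 12 of the 31 genes (38.7%), against 25.0% of 9365 tested genes with a listed promoter. GCGTG occurred upstream of 21 (67.7%), against 49.0%. The E-box CACGTG, which overlaps ACGTG and is bound by Myc, occurred upstream of 5 (16.1%), against 9.79%. Windows were searched on both strands, and a gene with several starts counted if any held the motif. Counted by promoter, ACGTG occurred in 32.6% of 46 promoters of the set, against 21.4% of 11907 promoters of tested genes. The shares were 54.3% against 43.5% for GCGTG and 10.9% against 8.14% for CACGTG. Such matches are descriptions of the letters and not binding sites.

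Glucose entry was served by 2 transporters and 2 hexokinases. All 4 were higher in IL-10 positive Th1 cells, 3 in Th17, 2 in Th2, 1 in pTh17 and 1 in Tr1. In the same order, 23.5%, 29.2%, 12.3%, 10.1% and 20.5% of all genes tested were higher, so 1 of 4 in Tr1 lay near that share. Slc2a1 encodes GLUT1, the main glucose transporter of activated T cells. It had 66.7, 71.3 and 74.3 TPM in IL-10 positive Th1 libraries, against 27.1, 29.5 and 31.0 TPM in IL-10 negative ones, a log2 change of 1.31 ± 0.09 (SE, edgeR adjusted p = 1.93e-14). The Th1 groups did not overlap. It was the 1 gene of the set higher in IL-10 positive pTh17 cells, with 65.4, 60.3 and 69.8 TPM in IL-10 positive pTh17 libraries, against 50.1, 46.0 and 52.1 TPM in IL-10 negative ones, a log2 change of 0.32 ± 0.09 (SE, edgeR adjusted p = 0.00774). That call ended without IL-10 negative pTh17 library 14, where the log2 fold change was 0.25.

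Slc2a3 encodes GLUT3, a transporter of higher glucose affinity. It had 161, 156 and 173 TPM in IL-10 positive Th1 libraries, against 73.1, 75.0 and 76.1 TPM in IL-10 negative ones, with a log2 change of 1.16 ± 0.09 (SE, edgeR adjusted p = 1.22e-13). In Th2 it had 195, 168 and 173 TPM in IL-10 positive libraries, against 79.0, 75.9 and 69.0 TPM in IL-10 negative ones, with a log2 change of 1.26 ± 0.09 (SE, edgeR adjusted p = 2.17e-14). IL-10 positive libraries lay above every IL-10 negative one in both cultures. The 2 Th17 cultures differed in its level, while the compartments of each overlapped. It had 443, 376 and 377 TPM in IL-10 positive pTh17 libraries, against 13.4, 14.4 and 11.5 TPM in IL-10 positive Th17 libraries. Among IL-10 negative libraries it had 378, 356 and 339 TPM in pTh17 libraries, against 12.98, 14.8 and 15.1 TPM in Th17 libraries. The pTh17 minus Th17 log2 fold change was 5.10 ± 0.11 (SE, edgeR adjusted p = 2.02e-31) among IL-10 positive and 5.04 ± 0.11 (SE, edgeR adjusted p = 8.71e-31) among IL-10 negative libraries, the largest and the second largest of the set. Within Th17 the IL-10 log2 difference was 0.03 ± 0.12 (SE, edgeR adjusted p = 0.863), and the groups overlapped. Of the summed Slc2a1 and Slc2a3 TPM, Slc2a3 made up 85.9 ± 1.40% in IL-10 positive pTh17 libraries and 87.8 ± 1.03% in IL-10 negative ones. In Th17 its share was 23.7 ± 2.55% in IL-10 positive Th17 libraries and 38.0 ± 4.94% in IL-10 negative ones (SD, n = 3 each). Slc2a3 was the larger part in the other cultures too. Its mean shares in IL-10 positive and IL-10 negative libraries were 69.8% and 71.9% in Th1, 74.1% and 61.5% in Th2, and 72.7% and 74.4% in Tr1.

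Hk2 encodes the inducible hexokinase, which traps glucose as glucose 6-phosphate. It had 14.8, 15.99 and 14.3 TPM in IL-10 positive Th17 libraries, against 1.27, 2.23 and 1.85 TPM in IL-10 negative ones, with a log2 change of 3.22 ± 0.14 (SE, edgeR adjusted p = 2.95e-21). The Th1 cultures had 21.3, 19.7 and 21.1 TPM in IL-10 positive libraries, against 3.33, 3.31 and 3.06 TPM in IL-10 negative ones, with a log2 change of 2.71 ± 0.12 (SE, edgeR adjusted p = 6.83e-21). These were the largest IL-10 differences of the set in those cultures, with IL-10 positive libraries far above the others. The Tr1 cultures had 1.53, 0.980 and 0.690 TPM in IL-10 positive libraries, against 0.280, 0.750 and 0.510 TPM in IL-10 negative ones, a log2 change of 1.08 ± 0.32 (SE, edgeR adjusted p = 0.00837) at levels of 0.28 to 1.53 TPM, on which the groups overlapped. That call ended without Tr1 library 16 of either compartment, where the log2 fold change was 0.80 to 0.83, and in a fit of the Tr1 libraries alone. In Th2 it had 16.96, 15.7 and 16.4 TPM in IL-10 positive libraries, against 14.6, 14.1 and 14.7 TPM in IL-10 negative ones, and in pTh17 26.9, 24.0 and 25.1 TPM in IL-10 positive libraries, against 22.7, 21.7 and 20.2 TPM in IL-10 negative ones. Neither of these differences was called, although the TPM of the compartments did not overlap in either culture. Among IL-10 negative libraries the pTh17 minus Th17 log2 fold change was 3.98 ± 0.14 (SE, edgeR adjusted p = 1.09e-24). Hk1, the constitutive hexokinase, was higher in IL-10 positive Th1 (0.48) and Th17 (0.43). In pTh17 minus Th17 it had 63.9, 70.3 and 63.0 TPM in IL-10 negative pTh17 libraries, against 50.9, 59.5 and 51.5 TPM in IL-10 negative Th17 libraries, a log2 change of 0.67 ± 0.09 (SE, edgeR adjusted p = 6.97e-08) and one of the 3 smallest called there. Of the summed Hk1 and Hk2 TPM, Hk2 made up 23.8 ± 1.03% in IL-10 positive Th1 libraries and 6.54 ± 1.83% in IL-10 negative ones, and 18.6 ± 1.44% in IL-10 positive Th17 libraries and 3.17 ± 0.642% in IL-10 negative ones.

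**Figure D3:**
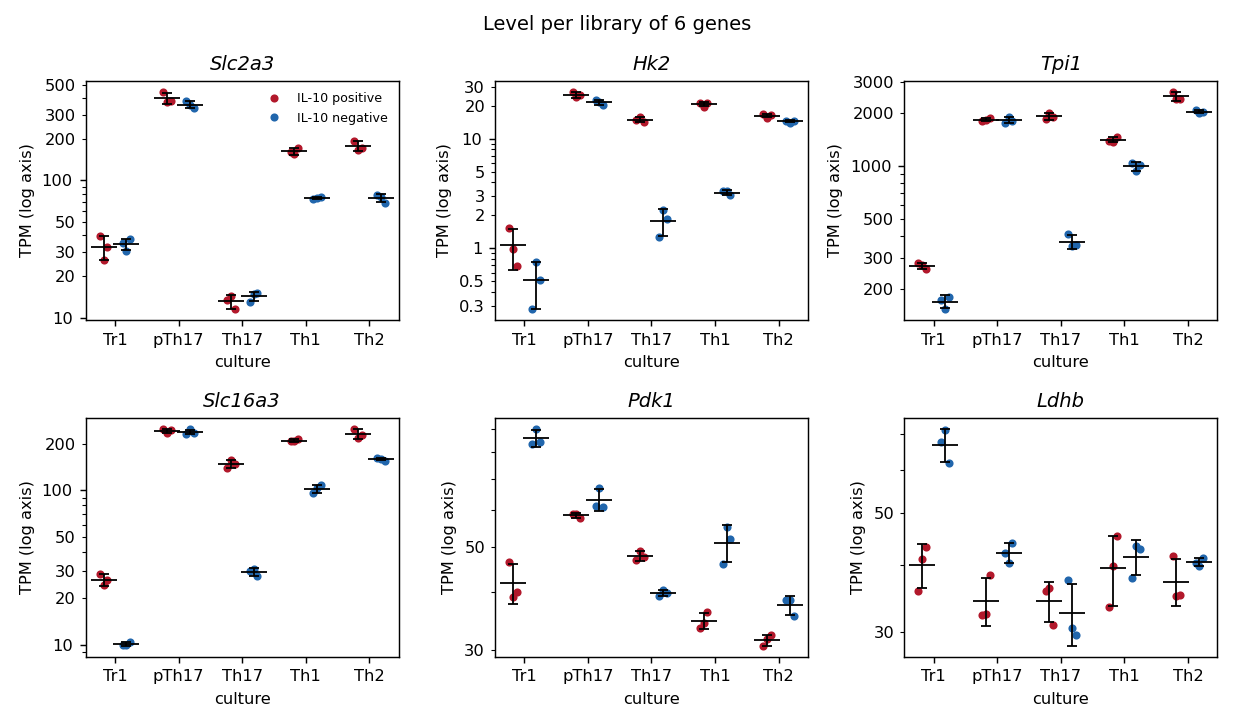
TPM per library (points, log axis) of Slc2a3, Hk2, Tpi1, Slc16a3, Pdk1 and Ldhb by culture and IL-10 compartment, with mean and SD of 3 libraries in black. Slc2a3 separates pTh17 (376 to 443 TPM in IL-10 positive libraries) from Th17 (11.5 to 14.4), while Hk2, Tpi1 and Slc16a3 separate the compartments within Th17.

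Upper glycolysis, from glucose 6-phosphate to the triose phosphates, had 7 of 9 genes higher and 1 lower in IL-10 positive Th17 cells. These were 77.8% and 11.1% of the 9, beside 29.2% and 28.9% of all genes. Th2 had 5 higher and 2 lower (55.6% and 22.2%, beside 12.3% and 9.49%), and Th1 4 higher (44.4%, beside 23.5%). Tr1 had 2 higher (22.2%), near the 20.5% of all genes, and pTh17 2 lower (22.2%, beside 8.33%). In limma on log2 TPM 1 of the 9 was also lower in Th1 and 1 higher in pTh17. Tpi1, triose phosphate isomerase, had 1846, 2005 and 1887 TPM in IL-10 positive Th17 libraries, against 408, 349 and 356 TPM in IL-10 negative ones, a log2 change of 2.51 ± 0.07 (SE, edgeR adjusted p = 1.67e-26). The pTh17 cultures had 1803, 1813 and 1877 TPM in IL-10 positive libraries, against 1761, 1894 and 1790.2 TPM in IL-10 negative ones, a log2 difference of -0.06 ± 0.07 (SE, edgeR adjusted p = 0.622). The IL-10 positive Th17 libraries thus overlapped both pTh17 groups, and the IL-10 negative Th17 libraries lay far below them. In Tr1 it had 279.6, 271 and 259.7 TPM in IL-10 positive libraries, against 173, 153 and 180.0 TPM in IL-10 negative ones, with a log2 change of 0.75 ± 0.08 (SE, edgeR adjusted p = 4.86e-10). In Th1 it had 1389.5, 1373 and 1456 TPM in IL-10 positive libraries, against 1039.8, 932 and 1004 TPM in IL-10 negative ones, and in Th2 2630.2, 2401 and 2405 TPM in IL-10 positive libraries, against 2077, 2003 and 2023 TPM in IL-10 negative ones. Compartments did not overlap in these 3 cultures, with log2 fold changes of 0.53 in Th1 and 0.28 in Th2.

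The phosphofructokinases commit sugar to glycolysis and are encoded by Pfkl (liver form), Pfkm (muscle form) and Pfkp (platelet form). Pfkl had a log2 fold change of 1.77 in Th17 and smaller ones in Th1 (0.31) and Th2 (0.27). Pfkp was higher in IL-10 positive Th17 (1.05) and lower in IL-10 positive pTh17. pTh17 cells showed 199.5, 194 and 219.5 TPM in IL-10 positive pTh17 libraries, against 236, 237 and 232 TPM in IL-10 negative ones, a log2 change of -0.28 ± 0.06 (SE, edgeR adjusted p = 0.00151), with no overlap. Pfkm had 12.2, 12.98 and 13.8 TPM in IL-10 positive Th2 libraries, against 20.6, 21.2 and 18.2 TPM in IL-10 negative ones, a log2 change of -0.61 ± 0.13 (SE, edgeR adjusted p = 5.92e-04). Of the summed TPM of the 3 genes, Pfkl made up 58.6 ± 1.05% in IL-10 positive Th17 libraries and 45.3 ± 0.896% in IL-10 negative ones.

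Pfkl changed direction between compartments when pTh17 was set against Th17. It had 125, 112 and 124 TPM in IL-10 positive pTh17 libraries, against 208, 231 and 221 TPM in IL-10 positive Th17 libraries, a log2 change of -0.70 ± 0.07 (SE, edgeR adjusted p = 3.21e-11). In the IL-10 negative compartment the log2 fold change was 1.11 ± 0.07 (SE, edgeR adjusted p = 3.06e-16). The test of the difference of differences, Th17 minus pTh17, gave 1.81 ± 0.10 (SE, edgeR adjusted p = 9.80e-18) on the log2 scale.

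Pfkfb3 and Pfkfb4 set the level of fructose 2,6-bisphosphate, the activator of phosphofructokinase. Pfkfb4 had 3.27, 4.21 and 3.22 TPM in IL-10 positive Th17 libraries, against 7.42, 9.76 and 7.56 TPM in IL-10 negative ones, a log2 change of -1.06 ± 0.19 (SE, edgeR adjusted p = 8.58e-06). It was the gene that fell most in IL-10 positive Th17 cells, and the groups did not overlap. Pfkfb3 was higher there, at 0.75. In Th2 Pfkfb3 had 14.1, 13.9 and 13.8 TPM in IL-10 positive libraries, against 19.2, 16.9 and 14.8 TPM in IL-10 negative ones, a log2 change of -0.27 ± 0.10 (SE, edgeR adjusted p = 0.0428). That call ended in 5 of the 6 fits without 1 Th2 library (all but IL-10 negative library 9), at log2 values of -0.30 to -0.19, without the count filter and in limma on log2 TPM. Pfkfb4 also had 18.8, 16.2 and 18.6 TPM in IL-10 positive pTh17 libraries, against 3.27, 4.21 and 3.22 TPM in IL-10 positive Th17 libraries, a log2 change of 2.49 ± 0.17 (SE, edgeR adjusted p = 7.32e-16).

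Among the remaining upper glycolysis genes, Gpi1, glucose 6-phosphate isomerase, was higher in IL-10 positive Th17 (0.79) and lower in IL-10 positive pTh17. In pTh17 it had 681, 707 and 715 TPM in IL-10 positive libraries, against 754, 806 and 768 TPM in IL-10 negative ones, a log2 change of -0.22 ± 0.06 (SE, edgeR adjusted p = 0.00434). In Th2 its log2 change was 0.15 ± 0.06 (SE, edgeR adjusted p = 0.0487), and the call ended in 19 of the fits without 1 library. Aldoa, the main aldolase, was higher in 4 cultures, with log2 fold changes of 1.51 in Th17, 0.76 in Th1, 0.54 in Tr1 and 0.37 in Th2. Aldoc, a second aldolase known from brain, had 39.9, 37.4 and 35.6 TPM in IL-10 positive Th2 libraries, against 29.2, 28.7 and 21.0 TPM in IL-10 negative ones, a log2 change of 0.53 ± 0.11 (SE, edgeR adjusted p = 3.67e-04). Aldoc was also called higher in IL-10 positive Th17 cells (mean 17.85 against 5.67 TPM) and Th1 cells (mean 242 against 153 TPM).

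Aldoc separated the 2 Th17 cultures more than any gene of the set but Slc2a3 did among IL-10 positive libraries, and more than all others among IL-10 negative ones. It had 347, 353 and 351 TPM in IL-10 positive pTh17 libraries, against 18.2, 16.8 and 18.5 TPM in IL-10 positive Th17 libraries, a log2 change of 4.46 ± 0.11 (SE, edgeR adjusted p = 4.80e-29). In the IL-10 negative compartment it had 348, 383 and 356 TPM in pTh17 libraries, against 6.53, 6.10 and 4.37 TPM in Th17 libraries, a log2 change of 6.38 ± 0.14 (SE, edgeR adjusted p = 1.75e-30). Every pTh17 library lay at 347 TPM or above, and every Th17 library at 18.5 TPM or below. Tr1 held Aldoc at 10.96 ± 4.002 TPM in IL-10 positive and 9.55 ± 2.43 TPM in IL-10 negative libraries (SD, n = 3 each).

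Lower glycolysis, from glyceraldehyde 3-phosphate to pyruvate, had most genes higher in IL-10 positive cells of 4 cultures, pTh17 being the exception. Of its 6 genes, 5 were higher in IL-10 positive Th17, 5 in Th1, 5 in Tr1 and 4 in Th2. In the same order, 29.2%, 23.5%, 20.5% and 12.3% of all genes tested were higher. In pTh17 edgeR called none of the 6. There 2 were higher at an unadjusted p below 0.05, DESeq2 called 0 and limma on log2 TPM called 4 higher, and none was lower by any of these. No gene of the 6 was called lower by edgeR in Th17 either, where Eno2, described below, was lower at an unadjusted p below 0.05 and in DESeq2 and limma. Gapdh, glyceraldehyde 3-phosphate dehydrogenase, had 7749.8, 8142 and 7860.0 TPM in IL-10 positive Th17 libraries, against 3102, 3020.1 and 2945 TPM in IL-10 negative ones, a log2 change of 1.54 ± 0.05 (SE, edgeR adjusted p = 8.35e-26). The pTh17 cultures had 11208, 11277 and 11144 TPM in IL-10 positive libraries, against 10061, 10736 and 10059 TPM in IL-10 negative ones, a log2 difference of 0.05 ± 0.05 (SE, edgeR adjusted p = 0.556). These TPM did not overlap, although edgeR did not call the difference. The Tr1 cultures had 3264, 3359 and 3172 TPM in IL-10 positive libraries, against 2124, 2231 and 2159.8 TPM in IL-10 negative ones, a log2 change of 0.67 ± 0.05 (SE, edgeR adjusted p = 2.64e-14). Gapdh, widely used as a constant control, was thus called different between compartments by edgeR in 4 of 5 cultures. It had 10139.7, 10033 and 10263 TPM in IL-10 positive Th1 libraries, against 5909, 6267 and 6379 TPM in IL-10 negative ones, and 11601, 10961 and 10935 TPM in IL-10 positive Th2 libraries, against 9781, 9357 and 8887 TPM in IL-10 negative ones.

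Pgk1, phosphoglycerate kinase, had 1509, 1625 and 1563 TPM in IL-10 positive Th17 libraries, against 478, 409 and 408 TPM in IL-10 negative ones, a log2 change of 2.00 ± 0.07 (SE, edgeR adjusted p = 4.08e-25). In Tr1 it had 457, 482 and 441 TPM in IL-10 positive libraries, against 245, 243 and 257 TPM in IL-10 negative ones, a log2 change of 0.96 ± 0.07 (SE, edgeR adjusted p = 1.13e-14), which is the third largest of the set there. IL-10 positive libraries lay above all IL-10 negative ones in both cultures. pTh17 cells showed 3352, 3294 and 3334 TPM in IL-10 positive pTh17 libraries, against 2914, 2898 and 2864 TPM in IL-10 negative ones, a log2 difference of 0.13 ± 0.06 (SE, edgeR adjusted p = 0.169). The pTh17 TPM did not overlap, although edgeR did not call the difference. The Th1 cultures had 2190.1, 2218 and 2199 TPM in IL-10 positive libraries, against 1544, 1464 and 1489 TPM in IL-10 negative ones, and in Th2 2311, 2213 and 2181 TPM in IL-10 positive libraries, against 1912, 1859.6 and 1813 TPM in IL-10 negative ones. The groups did not overlap in these cultures either, with log2 fold changes of 0.58 in Th1 and 0.26 in Th2.

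Eno1, the common enolase, had 2278, 2351 and 2190.1 TPM in IL-10 positive Th17 libraries, against 793, 801 and 727 TPM in IL-10 negative ones, a log2 change of 1.70 ± 0.06 (SE, edgeR adjusted p = 9.30e-24). In pTh17 it had 2060.4, 1935 and 2127 TPM in IL-10 positive libraries, against 1804, 1933 and 1891 TPM in IL-10 negative ones, a log2 difference of 0.05 ± 0.06 (SE, edgeR adjusted p = 0.674). Its TPM did not overlap between the pTh17 compartments, though the nearest libraries lay at 1935 and 1933 TPM. In Th1 it had 2071, 2106 and 2321 TPM in IL-10 positive libraries, against 1299, 1202 and 1248 TPM in IL-10 negative ones, a log2 change of 0.82 ± 0.06 (SE, edgeR adjusted p = 3.56e-14). In Th2 it had 2918, 2737 and 2674 TPM in IL-10 positive libraries, against 2420.4, 2329.9 and 2382 TPM in IL-10 negative ones, and in Tr1 550.0, 565 and 524 TPM in IL-10 positive libraries, against 539, 495 and 480.1 TPM in IL-10 negative ones. The Tr1 groups overlapped in TPM and the Th2 groups did not. The log2 fold changes were 0.22 in Th2 and 0.19 in Tr1, calls that ended without IL-10 positive library 7 or IL-10 negative library 8 of Th2, and without library 17 of either Tr1 compartment or IL-10 positive Tr1 library 18. RSEM divides reads between Eno1 and Gm5506, a near-identical copy, which took on average 8.83% to 19.6% of their summed TPM in the 10 groups, so the Eno1 values carry that uncertainty. Pgam1, phosphoglycerate mutase, was higher in Th17 (1.72), Th1 (0.75) and Tr1 (0.49), and Pkm, pyruvate kinase, in Th17 (1.21), Th1 (0.68), Tr1 (0.47) and Th2 (0.32). Eno2, the enolase of neurons, averaged 0.44 to 14.04 TPM over the groups and was called in no culture by edgeR. In Th17 it had 4.89, 3.36 and 4.23 TPM in IL-10 positive libraries, against 8.23, 6.16 and 5.80 TPM in IL-10 negative ones, with no overlap and a log2 difference of -0.54 ± 0.24 (SE, edgeR adjusted p = 0.0522). DESeq2 and limma called Eno2 lower in IL-10 positive Th17 cells, and higher in IL-10 positive Tr1 cells, where the log2 difference in edgeR was 0.87.

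Lactate and pyruvate handling split, with Slc16a3 and Ldha higher in IL-10 positive cells of 4 cultures each, and the kinase genes Pdk1 and Pdk2 lower in 4 and 3. Of the 6 genes, 4 were higher and 1 lower in Th17, 2 and 2 in Th1, 2 and 1 in Th2, 2 and 3 in Tr1, and 0 and 2 in pTh17, where 1 more was higher at an unadjusted p below 0.05 and neither DESeq2 nor limma called any higher. Of all genes tested, 29.2% were higher and 28.9% lower in Th17, 23.5% and 20.4% in Th1, and 12.3% and 9.49% in Th2. In Tr1 20.5% were higher and 14.2% lower, and in pTh17 10.1% and 8.33%. The Th1 counts, 2 of 6 each way, lay not far above these shares. Slc16a3 encodes MCT4, the lactate exporter of glycolytic cells. It had 139, 158 and 149 TPM in IL-10 positive Th17 libraries, against 30.1, 31.0 and 27.9 TPM in IL-10 negative ones, a log2 change of 2.47 ± 0.07 (SE, edgeR adjusted p = 1.08e-26). The Tr1 cultures had 28.8, 24.3 and 26.2 TPM in IL-10 positive libraries, against 9.94, 10.1 and 10.5 TPM in IL-10 negative ones, a log2 change of 1.44 ± 0.10 (SE, edgeR adjusted p = 1.12e-14) and the largest of the set in that culture. The pTh17 cultures had 249, 235.5 and 247 TPM in IL-10 positive libraries, against 232, 248 and 236 TPM in IL-10 negative ones, a log2 difference of -0.04 ± 0.06 (SE, edgeR adjusted p = 0.707). The Tr1 compartments did not overlap, at low levels, and the pTh17 compartments overlapped at high levels. The Th1 cultures had 209, 208 and 215 TPM in IL-10 positive libraries, against 96.6, 103 and 108 TPM in IL-10 negative ones, a log2 change of 1.06 ± 0.06 (SE, edgeR adjusted p = 3.80e-17). In Th2 it had 251, 217 and 228 TPM in IL-10 positive libraries, against 161, 160.4 and 156 TPM in IL-10 negative ones, a log2 change of 0.54 ± 0.06 (SE, edgeR adjusted p = 3.38e-09). Slc16a1, which encodes MCT1, was called higher by edgeR in Th17 (1.39). Its log2 differences in the other cultures, 0.15 to 0.29, were not called, although DESeq2 called that in Th1 and the fit of the 6 pTh17 libraries alone that in pTh17.

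Ldha, the lactate dehydrogenase subunit that favours lactate, was higher in Th17 (1.13), Th1 (0.54), Tr1 (0.43) and Th2 (0.21). Ldhb, the subunit that favours pyruvate, had 35.7, 41.0 and 43.1 TPM in IL-10 positive Tr1 libraries, against 67.7, 71.3 and 61.8 TPM in IL-10 negative ones, a log2 change of -0.65 ± 0.13 (SE, edgeR adjusted p = 7.15e-05). All 3 IL-10 negative Tr1 libraries lay above every other library of the study. pTh17 cells showed 32.2, 32.3 and 38.3 TPM in IL-10 positive pTh17 libraries, against 42.0, 40.2 and 43.8 TPM in IL-10 negative ones, a log2 change of -0.38 ± 0.12 (SE, edgeR adjusted p = 0.0223). That pTh17 call ended without library 13 of either compartment, IL-10 positive library 14 or IL-10 negative library 15, and in limma on log2 TPM. Of the summed Ldha and Ldhb TPM, Ldhb made up 1.99 ± 0.222% in IL-10 positive Tr1 libraries and 4.17 ± 0.119% in IL-10 negative ones.

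Pdk1 and Pdk2 encode kinases that switch off pyruvate dehydrogenase and so keep pyruvate from the mitochondrion. Pdk1 was lower in IL-10 positive cells of 4 cultures and higher in those of Th17. In Tr1 it had 46.5, 39.0 and 39.9 TPM in IL-10 positive libraries, against 83.2, 90.1 and 84.3 TPM in IL-10 negative ones, a log2 change of -0.96 ± 0.06 (SE, edgeR adjusted p = 8.68e-16). It had 33.3, 34.3 and 36.1 TPM in IL-10 positive Th1 libraries, against 45.9, 55.3 and 52.0 TPM in IL-10 negative ones, a log2 change of -0.53 ± 0.06 (SE, edgeR adjusted p = 2.25e-09). Neither pair of groups overlapped, and the IL-10 negative Tr1 libraries were the highest of the study. In Th2 it had 30.5, 31.6 and 32.2 TPM in IL-10 positive libraries, against 38.4, 38.4 and 35.4 TPM in IL-10 negative ones, a log2 change of -0.25 ± 0.06 (SE, edgeR adjusted p = 0.00154). In pTh17 it had 59.0, 58.9 and 57.6 TPM in IL-10 positive libraries, against 61.4, 67.1 and 60.9 TPM in IL-10 negative ones, a log2 change of -0.18 ± 0.06 (SE, edgeR adjusted p = 0.0267). That pTh17 call ended without library 14 or 15 of either compartment, without the count filter and in limma on log2 TPM. In Th17 the difference ran the other way, at 0.41 (edgeR adjusted p = 3.34e-07).

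Pdk2 had 10.6, 10.7 and 9.92 TPM in IL-10 positive Th17 libraries, against 18.1, 20.6 and 23.1 TPM in IL-10 negative ones, a log2 change of -0.83 ± 0.16 (SE, edgeR adjusted p = 2.84e-05). In Th1 it had 11.5, 11.2 and 8.47 TPM in IL-10 positive libraries, against 18.3, 19.3 and 18.3 TPM in IL-10 negative ones, a log2 change of -0.81 ± 0.16 (SE, edgeR adjusted p = 6.12e-05). The Tr1 cultures had 13.6, 13.8 and 16.2 TPM in IL-10 positive libraries, against 23.8, 26.5 and 23.4 TPM in IL-10 negative ones, a log2 change of -0.67 ± 0.16 (SE, edgeR adjusted p = 0.00144). IL-10 positive libraries were lower in all 3 cultures, with no overlap. In Th2 (-0.27) and pTh17 (-0.17) it was not called.

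The oxidative arm of the pentose phosphate pathway makes NADPH through G6pdx, Pgls and Pgd. All 3 were higher in IL-10 positive Th17 cells, beside 29.2% of all genes tested, with log2 fold changes of 0.42, 0.58 and 0.83. G6pdx, the X-linked glucose 6-phosphate dehydrogenase that starts the pathway, was also higher in IL-10 positive Tr1 (0.47) and lower in pTh17. The pTh17 cultures had 33.6, 34.4 and 39.3 TPM in IL-10 positive libraries, against 38.5, 44.3 and 44.4 TPM in IL-10 negative ones, a log2 change of -0.32 ± 0.10 (SE, edgeR adjusted p = 0.0158). The groups overlapped in TPM, and the call ended without IL-10 positive library 13 or 14 or IL-10 negative library 15, and in limma on log2 TPM. In pTh17 against Th17 it had 33.6, 34.4 and 39.3 TPM in IL-10 positive pTh17 libraries, against 61.9, 64.3 and 65.2 TPM in IL-10 positive Th17 libraries, a log2 change of -0.67 ± 0.09 (SE, edgeR adjusted p = 1.63e-07). The lowest IL-10 positive Th17 library lay well above the highest pTh17 one. Pgd, 6-phosphogluconate dehydrogenase, was higher in Th1 (0.32) and Th2 (0.23), the Th2 call ending without IL-10 positive library 7. It had 84.9, 89.2 and 93.9 TPM in IL-10 positive pTh17 libraries, against 121, 144 and 133 TPM in IL-10 positive Th17 libraries, a log2 change of -0.40 ± 0.07 (SE, edgeR adjusted p = 1.00e-05). Among IL-10 negative libraries it had 90.4, 87.2 and 87.2 TPM in pTh17 libraries, against 85.0, 83.0 and 79.5 TPM in Th17 libraries, a log2 change of 0.49 ± 0.08 (SE, edgeR adjusted p = 6.58e-07) that was 0.10 and not called in limma on log2 TPM. Pgls, the lactonase, was called by edgeR in no culture but Th17.

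The non-oxidative arm rearranges sugars through Tkt (transketolase), Taldo1 (transaldolase), Rpe and Rpia. Tkt was higher in Th17 (1.09), Th1 (0.65) and Tr1 (0.64). Taldo1 had 238, 235.3 and 245 TPM in IL-10 positive Th17 libraries, against 218, 199 and 188 TPM in IL-10 negative ones, a log2 change of 0.40 ± 0.08 (SE, edgeR adjusted p = 7.01e-05). The Th1 cultures had 281, 279.5 and 287 TPM in IL-10 positive libraries, against 247, 229 and 228 TPM in IL-10 negative ones, a log2 change of 0.30 ± 0.08 (SE, edgeR adjusted p = 0.00211). These were the smallest increases called in those cultures, yet the groups did not overlap. In Tr1 the log2 fold change was 0.31, a call that ended without the count filter. Rpe, ribulose phosphate epimerase, had means of 7.83 to 11.8 TPM over the 10 groups and was called in no culture in the fit of all libraries, although the fit of the 6 Th17 libraries alone called it higher there. Rpia had means of 0.14 to 1.03 TPM.

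Set against Th17, pTh17 had more of most transcripts of the set, and the gap was wider in the IL-10 negative compartment. Among IL-10 positive libraries 21 of 31 genes were higher and 5 lower in pTh17, beside 27.8% and 28.9% of all genes tested, with a median log2 fold change of 0.52. Among IL-10 negative libraries 28 were higher, beside 31.1% of all genes, with a median of 1.48. No gene was called lower there by edgeR, beside 28.9% of all genes. None was lower at an unadjusted p below 0.05 and DESeq2 called 0, whereas limma on log2 TPM called 2 lower. Without IL-10 negative pTh17 library 14, 1 was called lower. The median log2 fold change of all genes was close to 0 in both. The 5 genes lower in IL-10 positive pTh17 cells were Pfkl, G6pdx, Pgd, Ldha (-0.27) and Taldo1 (-0.27). Among IL-10 negative libraries Taldo1 had 203, 181 and 197 TPM in pTh17 libraries, against 218, 199 and 188 TPM in Th17 libraries, a log2 change of 0.34 ± 0.08 (SE, edgeR adjusted p = 5.38e-04). Its TPM overlapped between these groups, and limma on log2 TPM gave -0.06 (adjusted p = 0.390). For Eno1 among IL-10 positive libraries the values were 0.01 (edgeR adjusted p = 0.866) and -0.16 in limma (adjusted p = 0.0114), and for G6pdx among IL-10 negative ones 0.08 (edgeR adjusted p = 0.4996) and -0.31 in limma (adjusted p = 0.0108). On the TPM scale the median log2 fold change of all genes was -0.13 among IL-10 positive and -0.30 among IL-10 negative libraries, so TPM changes in this comparison are to be read relative to that shift. These 2 comparisons share groups with the IL-10 differences of Th17 and pTh17 and are not independent of them.

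**Figure D4:**
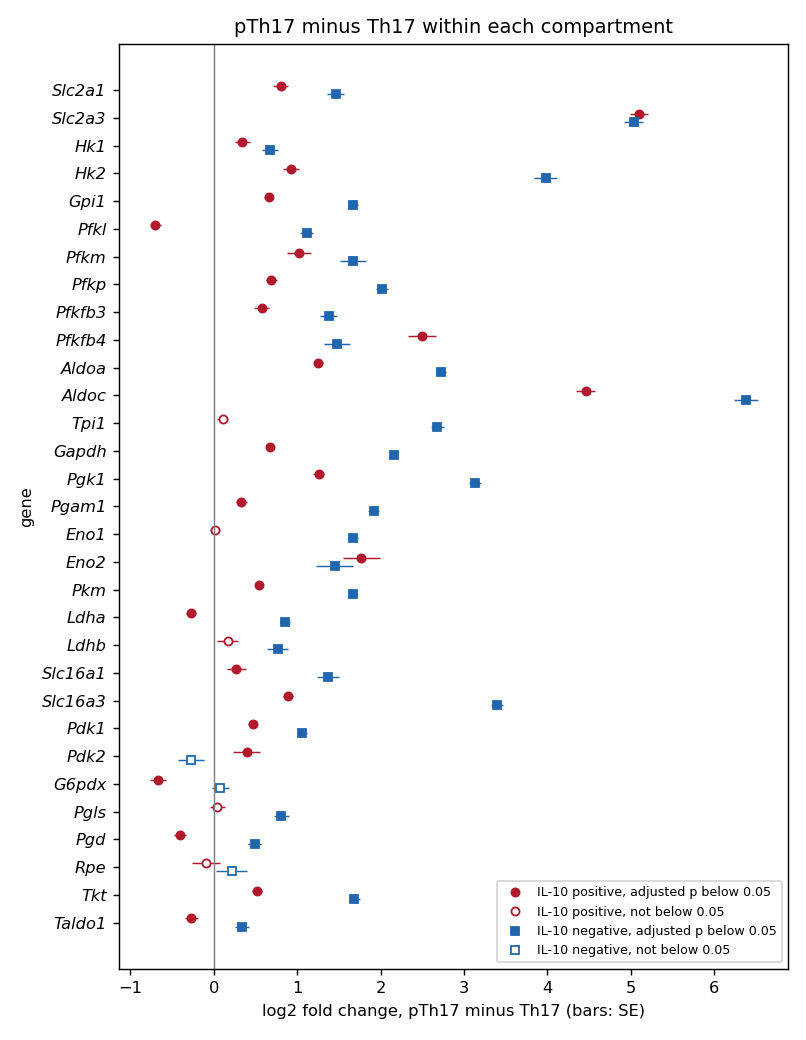
log2 fold change, pTh17 minus Th17, of 31 genes (rows), among IL-10 positive (red circles) and IL-10 negative libraries (blue squares), with bars for SE and open symbols where edgeR's adjusted p was not below 0.05. Slc2a3 lies at 5.10 and 5.04, Aldoc at 4.46 and 6.38, and Pfkl on opposite sides of 0.

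Other genes of the same metabolism came from lists chosen with earlier results known. At most 3 called genes per list and comparison were named, by size of change. A culture not given for a named gene therefore does not mean that the gene was unchanged there. Their shares called are given beside those over all genes tested, which were 29.2% higher and 28.9% lower in Th17, 23.5% and 20.4% in Th1, 12.3% and 9.49% in Th2, 20.5% and 14.2% in Tr1, and 10.1% and 8.33% in pTh17. Of 27 tested regulators and hypoxia response genes, 13 were higher and 7 lower in IL-10 positive Th17, 12 and 6 in Th1, 5 and 4 in Th2, 5 and 4 in Tr1, and 3 and 4 in pTh17. The higher shares of 48.1% in Th17 and 44.4% in Th1 lay above those of all genes. The lower shares there (25.9% and 22.2%) and both shares in Tr1 (18.5% and 14.8%) lay near them. In Th17 the adenylate kinase Ak4 had a log2 change of 3.06 ± 0.21 (SE, edgeR adjusted p = 1.19e-15) and the collagen hydroxylase P4ha2 3.47 ± 0.40 (SE, edgeR adjusted p = 1.75e-09). P4ha2 averaged 4.93 TPM in IL-10 positive and 0.48 TPM in IL-10 negative Th17 libraries. The HIF family member Epas1 was lower in IL-10 positive Th17 cells, at -2.33 (mean 0.56 against 3.21 TPM), and higher in Th1, at 1.54. Egln3, an oxygen-sensing prolyl hydroxylase induced by HIF, rose in Th1 (1.80), Th2 (0.98) and Tr1 (0.96). In pTh17 minus Th17, 20 of the 27 were higher and 3 lower among IL-10 positive and 19 and 3 among IL-10 negative libraries. The higher shares were 74.1% and 70.4%, beside 27.8% and 31.1% of all genes. P4ha2 differed by 2.86 among IL-10 positive libraries, and by 6.32 among IL-10 negative ones. The second value rests on the low mean of 0.48 TPM in IL-10 negative Th17 libraries, against 30.2 TPM in IL-10 negative pTh17 libraries.

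Of 12 tested genes of pyruvate entry into mitochondria, 8 were higher in IL-10 positive Th17, 5 higher and 1 lower in Th1, 4 higher in Th2 and 1 each way in Tr1. The share higher was 66.7% in Th17, 41.7% in Th1 and 33.3% in Th2, and 8.33% in Tr1, under that of all genes. Pcx, pyruvate carboxylase, had 12.1 ± 1.31 TPM in IL-10 positive and 5.47 ± 0.81 TPM in IL-10 negative Th17 libraries (SD, n = 3 each), a log2 fold change of 1.30. Of 18 side-branch genes, 11 were higher and 2 lower in Th1, 9 and 3 in Th17, 7 and 1 in pTh17, 5 and 2 in Tr1, and 4 and 1 in Th2. The share higher was 61.1% in Th1 and 38.9% in pTh17, and closer to all genes in Tr1, at 27.8%. Phgdh, which opens serine synthesis, had log2 fold changes of 2.49 in Th17 and 1.48 in Th1. Gpd2, the glycerol phosphate shuttle enzyme, had 3.38 in Tr1, 2.28 in Th1, 1.14 in Th2 and 0.56 in pTh17. Its Tr1 value rests on low levels, with means of 2.00 TPM in IL-10 positive and 0.21 TPM in IL-10 negative libraries. Of 15 genes of NADPH use, 9 were higher and 1 lower in Th17 and in Th1, 7 higher in Th2, 7 and 1 in Tr1, and 3 and 1 in pTh17. The share higher was 60% in Th17 and in Th1 and 46.7% in Th2 and in Tr1. Txn1, thioredoxin, had log2 fold changes of 1.93 in Th17, 1.41 in Th1 and 1.26 in Tr1. Of 22 tested tissue isoforms and further enzymes, 9 were higher and 5 lower in Th17, 4 and 4 in Th1, 4 and 1 in Th2, 2 and 5 in Tr1, and 1 and 5 in pTh17. Their shares in Th1, 18.2% each way, lay near those of all genes, as did the 22.7% lower in Th17. No difference between lists was tested.

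Cell cycle genes differed between the same groups. All 20 listed were higher in IL-10 positive Th17 and Tr1 cells, beside 29.2% and 20.5% of all genes tested. In Th1 19 of them were higher (beside 23.5%), in pTh17 19 (beside 10.1%) and in Th2 8 (40%, beside 12.3%). Their summed level was 1039.8 ± 90.0 TPM in IL-10 positive and 371 ± 24.3 TPM in IL-10 negative Tr1 libraries (SD, n = 3 each, as below). It was 2588 ± 148 TPM in IL-10 positive and 1781 ± 27.6 TPM in IL-10 negative pTh17 libraries, and 4542 ± 116 TPM in IL-10 positive and 870.3 ± 50.2 TPM in IL-10 negative Th17 libraries. IL-10 positive Th1 libraries had 1571 ± 55.7 TPM and IL-10 negative ones 737 ± 43.7 TPM. IL-10 positive Th2 libraries had 5094 ± 102 TPM and IL-10 negative ones 4717 ± 74.9 TPM. In pTh17 minus Th17, 1 cell cycle gene was higher and 16 lower among IL-10 positive libraries, beside 27.8% and 28.9% of all genes. Among IL-10 negative libraries 18 were higher and 1 lower, beside 31.1% and 28.9%. In pTh17, 19 of 20 cell cycle genes and 1 of the 31 glycolytic and pentose phosphate genes were higher. The counts of the set in the other cultures are given above. The part of the cell cycle in the differences of the set was not tested.

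Markers of other cell types differed too. Of 9 tested B cell markers 8 were higher in IL-10 positive pTh17, 4 of 9 in Th17 (1 lower), 2 in Th1, 2 in Th2 and 1 in Tr1. The pTh17 share was 88.9%, beside 10.1% of all genes, and that in Th1 22.2%, near the 23.5% of all genes. Their summed level over 11 listed genes was 349.9 to 481 TPM in IL-10 positive and 179 to 186 TPM in IL-10 negative pTh17 libraries, with no listed marker at 0. In Th17 it was 34.3 to 41.4 TPM in IL-10 positive libraries, with Pax5 at 0, and 10.2 to 13 TPM in IL-10 negative ones. In Th1 it was 63.9 to 77.2 TPM in IL-10 positive libraries, with Pax5 at 0, and 23.3 to 27.3 TPM in IL-10 negative ones, with Ms4a1 and Pax5 at 0. In Th2 it was 72.3 to 93.8 TPM in IL-10 positive and 57.7 to 68.4 TPM in IL-10 negative libraries, the IL-10 negative ones with Pax5 at 0, and in Tr1 12.3 to 15.9 TPM in IL-10 positive and 10.5 to 15.8 TPM in IL-10 negative libraries, with Pax5 and Ebf1 at 0 in both. In pTh17 minus Th17, 9 of 9 B cell markers were higher among IL-10 positive libraries, and 3 higher and 1 lower among IL-10 negative ones.

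Of 3 tested NK cell markers, all 3 were higher in IL-10 positive Th1 and pTh17 cells, 2 in Tr1, and 2 higher and 1 lower in Th17. Over 5 listed genes they summed to 120.4 to 127 TPM in IL-10 positive and 32.7 to 38.9 TPM in IL-10 negative Th1 libraries, with Ncr1 at 0 in the IL-10 positive and Klre1 at 0 in the IL-10 negative ones. In Tr1 they summed to 135 to 157 TPM in IL-10 positive and 34.7 to 49 TPM in IL-10 negative libraries, with Klre1 at 0. Of 5 tested myeloid markers, 2 were higher in IL-10 positive Th1 cells, 1 in Tr1, 1 higher and 1 lower in Th17, and 4 higher in pTh17, with pTh17 sums of 47.7 to 63.6 TPM in IL-10 positive and 11 to 15.7 TPM in IL-10 negative libraries, the IL-10 negative ones with Lyz2 and S100a9 at 0. Both CD8 T cell genes were higher in IL-10 positive Tr1, Th1 and Th2 cells, with sums of 49.2 to 60 TPM in IL-10 positive and 31.5 to 35.7 TPM in IL-10 negative Tr1 libraries. Red cell markers, none of which was tested, summed on average to 6.11 TPM or less in every group. Beside these marker counts, the shares of all genes tested that were higher were 23.5% in Th1, 12.3% in Th2, 10.1% in pTh17 and 20.5% in Tr1. In Th17 they were 29.2% higher and 28.9% lower. The Tr1 myeloid count, 1 of 5, lay near its share. The part of other cells in the differences of the set was not tested.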

How the data were processed

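RNA was sequenced from 30 libraries (10 groups of 3), each made from 2000 sorted cells by an adaptation of SMART-Seq2, per the labels' protocols, a method that marks neither strand nor molecules. Per the submitters' processing notes and the file headers, the authors used RSEM on mm10 with a UCSC gene annotation. For the RSEM version, the aligner and any filter nothing is stated in the sources used here. The authors deposited expected counts, TPM and FPKM per gene and library, with gene lengths. FPKM and lengths were not used. RSEM can divide reads among near-identical copies. The deposited expected counts were rounded and tested with edgeR 4.0.16 in R 4.3.3 (filterByExpr, TMM, quasi-likelihood F test, all 30 libraries in 1 fit, 2-sided, Benjamini-Hochberg over 12611 genes, called at an adjusted p below 0.05). Folds come from this fit, and levels from the deposited TPM.

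Alternatives were DESeq2 1.42.0, limma 3.58.1 on log2(TPM + 1), other size factors, no count filter, a replicate block, the compared libraries alone, and each library left out. The code was tested on simulated data. The 32 genes and all lists were chosen with earlier results of these data known. All 32 were named. Values per library were given for the 3 called genes with the largest and the 3 with the smallest log2 fold change in each IL-10 comparison and each pTh17 minus Th17 comparison, with at least 1 TPM in either group, and for the 6 with the smallest p for unequal IL-10 differences. Of other lists at most 3 called genes per comparison were named, by size of change. Il10 and Thy1 checked the labels. Total counts were 4394704 to 11850597 per library. Promoters came from RefSeq, GRCm38.p6.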

Additional observations from a re-analysis of the deposited data

Results flagged for a closer look

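The IL-10 difference was unequal over the 5 cultures for 30 of the 31 genes tested, by an interaction test in edgeR, while 60.7% of all genes passed the same test. The edgeR adjusted p was 5.88e-22 for Slc16a3, 9.50e-22 for Tpi1, 7.30e-20 for Gapdh, 8.25e-20 for Hk2, 1.90e-19 for Pgk1, 7.45e-19 for Eno1, 5.94e-18 for Pfkl, 2.75e-17 for Aldoa, 4.24e-17 for Pgam1 and 3.37e-15 for Pkm. It was 6.83e-15 for Pdk1, 5.31e-14 for Pfkp, 1.69e-13 for Ldha, 1.98e-13 for Tkt, 6.95e-13 for Gpi1, 1.26e-12 for Slc2a3, 5.74e-09 for Aldoc, 8.67e-09 for Slc2a1, 7.51e-08 for Pgd and 5.18e-07 for Pfkfb3. It was 7.31e-07 for Slc16a1, 2.88e-05 for Pgls, 2.91e-05 for G6pdx, 4.18e-05 for Taldo1, 7.18e-04 for Ldhb, 7.95e-04 for Pfkfb4, 0.00339 for Pfkm, 0.0279 for Eno2, 0.0285 for Pdk2 and 0.0435 for Hk1. Rpe did not pass (adjusted p = 0.646). The largest differences by culture lay in Th17, which had 24 genes higher and 2 lower, against 1 higher and 5 lower in pTh17. For Hk1, Eno2 and Pdk2, the 3 with the highest p, the call ended without 14, 3 and 3 of the 30 libraries, each left out in turn.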

How the results depend on the processing

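Single-gene calls were recomputed with 1 library left out (13950 results, of which 100 lost and 61 gained a call and none reversed), DESeq2 (465, with 0 lost and 8 gained), median-of-ratios size factors (465, with 1 and 3), no count filter (465, with 6 and 8), limma on log2(TPM + 1) (465, with 17 and 13), a fit of the compared libraries alone (248, with 2 and 9) and the title number as a replicate block (279, with 1 and 5). Deviations from the group mean correlated little between libraries that share a title number (r of -0.046 to 0.0546, with every library closest to its own number in Th2 alone). With 3 libraries a group, such values cannot tell whether the compartments were sorted from the same culture. With the block the Th1 count of lower genes was 4 instead of 2, and the Eno2 call of unequal IL-10 difference was lost. In limma, reversed log2 values were -0.16 for Eno1 in IL-10 positive and -0.31 for G6pdx and -0.056 for Taldo1 in IL-10 negative pTh17 minus Th17. Counts of calls moved as follows, and the cause was not tested. Th1 lower, 2 in all libraries, was 4 in the fit alone and 2 to 4 with a library left out. pTh17 higher, 1, was 6 in limma, 2 in the fit alone and 0 to 1 with a library left out. pTh17 lower, 5, was 2 in limma and 2 to 6 with a library left out. Lower genes in the Th17 minus pTh17 IL-10 difference numbered 2, and 1 to 2 with a library left out. In pTh17 minus Th17 among IL-10 negative libraries they numbered 0, then 2 in limma and 0 to 1 with a library left out (1 without IL-10 negative pTh17 library 14). In Th17 minus the mean of the other 4 they numbered 2, and 4 in limma. On the TPM scale the share of all calls that were higher was 70.8% instead of 54.9% in pTh17 and 39.9% instead of 50.3% in Th17. It was 36.1% instead of 49.0% in pTh17 minus Th17 among IL-10 positive libraries and 29.3% instead of 51.8% among IL-10 negative ones. For the Th17 minus pTh17 and Th17 minus other differences it was 35.5% instead of 54.0% and 38.1% instead of 51.3%. Depth limits the genes of the set near or below 1 TPM, which were Rpia in all groups, Hk2 in Tr1 and Eno2 in Th2.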

Other observations

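The balance within gene pairs differed between groups. Of the summed Slc16a1 and Slc16a3 TPM, Slc16a3 made up 70.6 ± 5.02% in IL-10 positive Tr1 libraries and 49.1 ± 2.60% in IL-10 negative ones (SD, n = 3 each, as below). In Th17 its share was 88.2 ± 0.616% in IL-10 positive Th17 libraries and 77.8 ± 1.78% in IL-10 negative ones. Of the summed Pfkfb3 and Pfkfb4 TPM, Pfkfb4 made up 11.2 ± 1.51% in IL-10 positive Th17 libraries and 30.2 ± 5.58% in IL-10 negative ones. In Th2, of the summed Hk1 and Hk2 TPM, Hk2 made up 16.5 ± 0.625% in IL-10 positive Th2 libraries and 16.8 ± 0.498% in IL-10 negative ones. In Tr1, where Hk2 lay between 0.28 and 1.53 TPM, its share was 2.58 ± 0.901% in IL-10 positive Tr1 libraries and 1.41 ± 0.659% in IL-10 negative ones.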
